A study of Mus musculus with 48 samples.

Results

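White adipose tissue (WAT) of old mice returned from dietary restriction to full feeding was compared with that of mice kept restricted, 5 libraries against 3. These 8 libraries were taken from the series by their diet, tissue and age labels, out of 22 WAT libraries and 48 libraries in all. All mice were female C3B6F1, an F1 hybrid strain, housed 5 to a cage. Restricted mice (DR) had received 60% of the food eaten by fully fed mice since 12 weeks of age. Refed mice (DRAL) shared that restriction until 24 months of age and were then given unlimited food. WAT of mice fully fed throughout (AL, 3 libraries) and of fully fed mice put on restriction at 24 months (ALDR, 5 libraries) served as further comparisons at 26 months. At 5 months of age, WAT of fully fed mice (AL, 3 libraries) and of mice restricted for 2 months (labelled ALDR, 3 libraries) was used as well. The age label is 26 months, although the protocol gives 27 months as the age at killing. Tissue was collected within 3 hours of the next daily meal of the DR mice, whereas DRAL mice had free access to food. Diet and the time since the last meal therefore cannot be told apart here.

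White adipocytes store energy as triglyceride. After a meal, insulin drives glucose uptake and, through the transcription factors SREBP1c and ChREBP, the synthesis of new fatty acids; in fasting, lipolysis releases the stored fat. Fat cells also secrete hormones such as leptin, whose level follows fat mass, and enlarged fat depots recruit macrophages. Adipose tissue has its own circadian clock, in which BMAL1 (gene Arntl) and CLOCK switch on their own repressors, the PER and CRY proteins, through E-box sequences, and whose phase follows the time of meals.

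Total counts of the 8 libraries were 15947937 to 22500246, and a count of 3 in such a library is a level of 0.133 to 0.188 CPM, which covers counting error only. CPM is the read count relative to the size of its library, here scaled by TMM. Levels in CPM are compared between libraries for 1 gene, not between genes of different length. Adipocyte markers summed to 31310 to 37671 CPM in DR and 29791 to 34606 CPM in DRAL. The labels' protocol names an epididymal depot although the mice were female; 7 of 8 epididymis and testis markers were at 0 in all 8 libraries, and which depot was sampled is uncertain. Ovary and uterus markers, of which 3 of 10 were at 0 in all 8 libraries, summed to 139 to 207 CPM in DR and 66.6 to 125 CPM in DRAL, with no overlap, and their part in the results was not tested. Libraries of 1 group are separate samples in the labels, which do not tie each one to a named mouse, so p-values measure the spread between these libraries.

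Skeletal muscle RNA separated the DR libraries from the DRAL libraries. Summed over 14 muscle markers, DR replicates 1, 2 and 3 had 452, 6511 and 18163 CPM, whereas the 5 DRAL libraries had 24.1 to 54 CPM the AL libraries 50.1 to 1124 CPM and the ALDR libraries 18.5 to 4100 CPM. All 14 markers fell in DRAL, among them Ckm, muscle creatine kinase, which had 45.8, 531 and 1944 CPM in DR and at most 1.8 CPM in DRAL. The muscle level separated the groups with no overlap, and its part in the results below was not tested as a cause. Results are therefore also given with DR replicate 1, which had the least muscle RNA, as the one DR library. That fit assumes that the lone library varies like the other groups, and a call it loses may be lost with the number of libraries. In it the median log2 fold change of the 14 muscle markers was -6.21, against -10.21 with all DR libraries. The muscle difference was thus smaller there but was not removed. Macrophage markers summed to 1617, 1502 and 1093 CPM in DR and to 2730, 3771, 2955, 5382 and 2261 CPM in DRAL, again with no overlap. B and plasma cell markers ranged from 134 to 517 CPM in DR and from 129 to 733 CPM in DRAL. In bulk tissue, fewer cells of a type and less RNA per cell cannot be told apart.

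**Figure D1:**
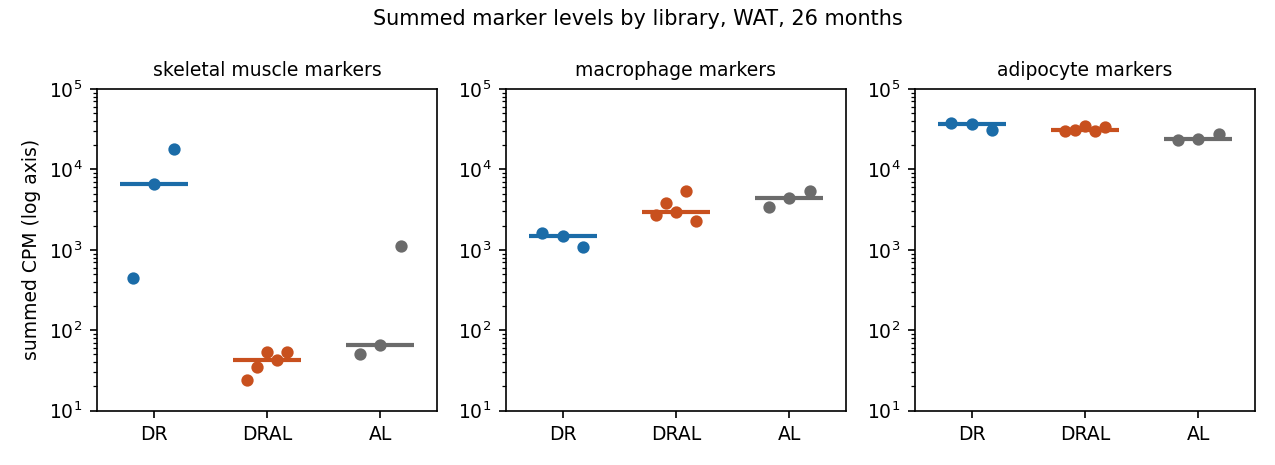
Summed CPM (log axis) of skeletal muscle, macrophage and adipocyte markers; each point is 1 library and lines are group medians, for 3 DR, 5 DRAL and 3 AL libraries. Muscle sums were 452 to 18163 CPM in DR and 24.1 to 54 CPM in DRAL, and macrophage sums were higher in every DRAL library than in every DR library.

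Refeeding was accompanied by a broad change of the WAT transcriptome, with lower fatty acid synthesis and mitochondrial genes and higher leptin, matrix, macrophage and proliferation genes. Of 15828 genes tested, 4825 differed between DRAL and DR at a Benjamini-Hochberg adjusted p under 0.05 (edgeR quasi-likelihood test), which is 30.5%. Of these, 2316 rose (14.6% of genes tested) and 2509 fell (15.9%), and the median absolute log2 fold change of the called genes was 0.65. A log2 fold change of at least 1 was reached by 620 genes that rose, and one of at most -1 by 807 that fell. Against DR replicate 1 alone, 718 genes were called, and with a muscle score as a covariate 428. Against AL, DRAL differed in 344 genes (2.17%).

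**Figure D2:**
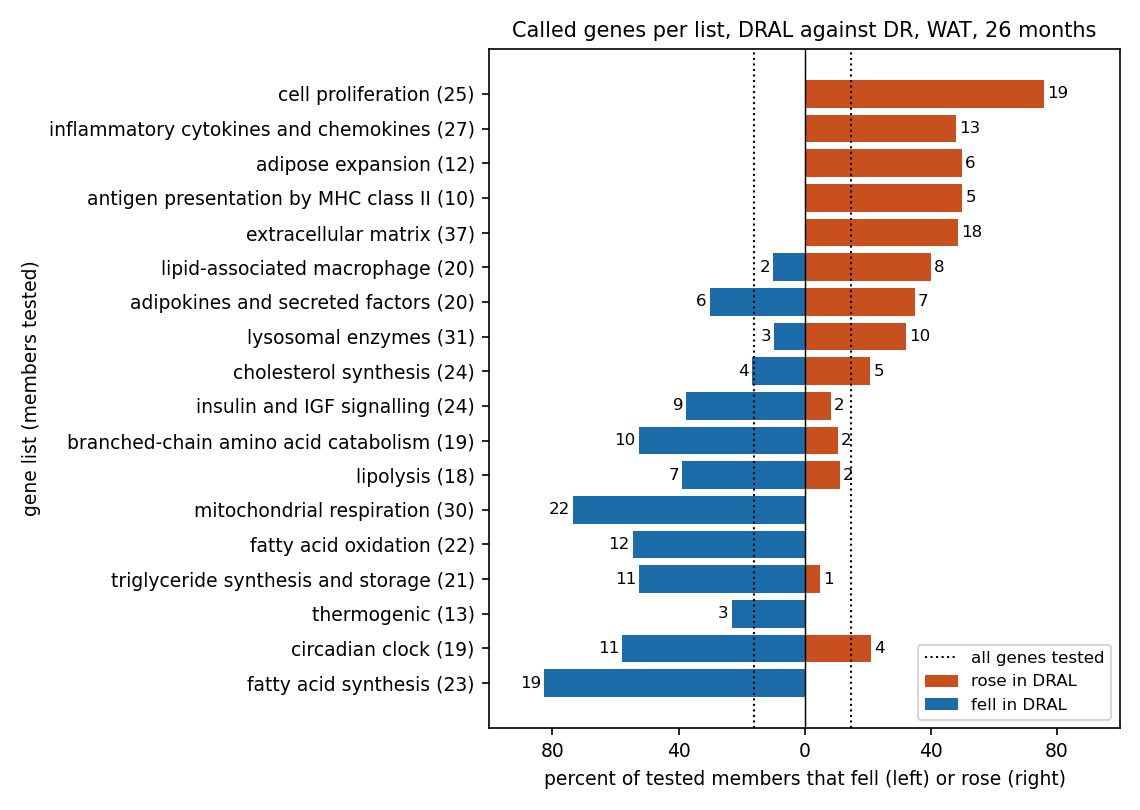
Percent of tested members of 18 gene lists that fell (left) or rose (right) in DRAL against DR at an edgeR adjusted p under 0.05; numbers are counts of genes, the number tested is in parentheses, and dotted lines mark the share among all genes tested. Fatty acid synthesis (19 of 23), mitochondrial respiration (22 of 30) and clock genes (11 of 19) fell most often, and proliferation genes (19 of 25) rose most often.

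The falling genes chosen by smallest adjusted p included transporters and glycolytic and lipid genes. C2cd2l, a lipid transfer protein at contacts between the endoplasmic reticulum and the plasma membrane, had 76.1, 85.7 and 87.7 CPM in DR and 27.2, 22.6, 21.9, 17.8 and 21.6 CPM in DRAL. The groups did not overlap, and the log2 fold change was -1.90 (SE 0.11, edgeR adjusted p = 1.17e-08). Slc27a1, the fatty acid transport protein FATP1, had 2020, 2147 and 1992 CPM in DR and 251, 291, 235, 188 and 206 CPM in DRAL, with a log2 fold change of -3.13 (SE 0.24, edgeR adjusted p = 3.13e-07). Slc5a6, the transporter of biotin and pantothenate, vitamins used by carboxylases and coenzyme A, fell by 2.01 on the log2 scale (SE 0.14, edgeR adjusted p = 1.57e-07). Gpi1, glucose-6-phosphate isomerase of glycolysis, fell by 1.29, Sh2b2, an adaptor of the insulin receptor, by 1.84, and Oscp1 by 1.58. Each of these 6 remained called with DR replicate 1 alone and with the muscle covariate.

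The rising genes chosen in the same way were Rarres2, Fbxo22, Timp4, Tpm4, Arntl and Tubb2a. Rarres2 encodes the adipokine chemerin and had 130, 155 and 129 CPM in DR and 501, 523, 461, 539 and 486 CPM in DRAL. Every DRAL library was above every DR library, with a log2 fold change of 1.86 (SE 0.16, edgeR adjusted p = 8.76e-07). Timp4, an inhibitor of matrix metalloproteinases, rose by 1.64 on the log2 scale, Tpm4, a cytoskeletal tropomyosin, by 1.58, Tubb2a, a beta-tubulin, by 1.72, and Fbxo22, a ubiquitin ligase subunit, by 1.19. All 6 also kept their call in both fits that address muscle RNA.

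Genes of fatty acid synthesis fell as a group. Of 23 members tested, 19 fell and 4 were not called, with a median log2 fold change of -1.87, against -0.01 over all genes tested. In 17 members, every DRAL library was below every DR library, as in 16.4% of all genes tested. With DR replicate 1 as the one DR library, 14 fell and the median was -2.02; with the muscle covariate, 14 fell and the median was -2.46. Of the 10 adipocyte markers, 5 fell (Pnpla2, Lipe, Adrb3, Cebpa and Plin1) and 5 were not called, with a median of -0.36; 3 fell without DR replicate 2 and 1 in each fit that addresses muscle RNA. Their part in the falls of the lipid and mitochondrial lists was not tested. The promoters of Fasn and Thrsp are shown because they carry a CCAAT box, the site of nuclear factor Y, which works beside SREBP at lipogenic promoters. The windows come from the RefSeq promoter table (GRCm38.p6), in which the 250 bases before each start were searched on both strands for CCAAT; capitals mark it, as CCAAT or, from the other strand, ATTGG. Fasn, at chr11:120824587-120824652 on the minus strand, has 3 matches, of which 2 overlap, and Thrsp, at chr7:97417583-97417644 on the minus strand, has 2.
Fasn: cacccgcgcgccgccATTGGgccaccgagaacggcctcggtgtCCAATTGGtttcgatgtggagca
Thrsp: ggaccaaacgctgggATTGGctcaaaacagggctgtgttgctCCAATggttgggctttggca
Among list members with a promoter in the table, 12 of 19 had a CCAAT match, in 13 of their 24 promoters (54.2%), against 33.8% of all 32851 promoters. The E-box CACGTG was in 12.5% of the list's promoters, against 6.02% of all. These matches describe the letters of the windows and not binding.

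Enzymes from citrate export to chain elongation were among the 19. Slc25a1, the carrier that exports citrate from mitochondria, had 1118, 749 and 972 CPM in DR and 205, 141, 214, 169 and 210 CPM in DRAL, with a log2 fold change of -2.34 (SE 0.24, edgeR adjusted p = 4.83e-06). Acly, which splits citrate to acetyl-CoA, had 3859, 2190 and 4524 CPM in DR and 781, 351, 905, 423 and 989 CPM in DRAL (log2 fold change -2.35, SE 0.41, edgeR adjusted p = 0.000482). Neither gene's groups overlapped.

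Acaca, the carboxylase that makes malonyl-CoA, had 9691, 8611 and 10125 CPM in DR and 1651, 597, 1493, 853 and 1578 CPM in DRAL. Its log2 fold change was -2.94 (SE 0.35, edgeR adjusted p = 1.57e-05). Fasn, fatty acid synthase, had 28547, 35590 and 32849 CPM in DR and 4986, 2034, 6939, 1795 and 5112 CPM in DRAL, with a log2 fold change of -2.95 (SE 0.38, edgeR adjusted p = 3.47e-05). For both genes DRAL replicates 2 and 4 were the 2 lowest libraries, and every DR library was well above every DRAL library.

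Scd1, the desaturase that makes oleate, had 74154, 65454 and 57086 CPM in DR and 19918, 10169, 21063, 10250 and 21098 CPM in DRAL (log2 fold change -1.99, SE 0.32, edgeR adjusted p = 0.000235). Elovl6, which lengthens palmitate, had 2984, 1934 and 2548 CPM in DR and 205, 81.9, 292, 153 and 302 CPM in DRAL, with a log2 fold change of -3.59 (SE 0.50, edgeR adjusted p = 6.47e-05). DRAL replicates 2 and 4 were again the lowest for Scd1, Elovl6, Acly, Tkt and Acacb, so these genes varied together within the refed group. The enzymes that supply NADPH also fell, Me1 by 2.68, G6pdx by 0.72 and Pgd by 0.53 on the log2 scale, with overlapping groups for Pgd. Tkt, transketolase of the pentose phosphate pathway, fell by 2.59.

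The regulators of these enzymes fell as well. Srebf1, which encodes SREBP1, had 426, 469 and 556 CPM in DR and 237, 191, 257, 124 and 207 CPM in DRAL, with a log2 fold change of -1.25 (SE 0.19, edgeR adjusted p = 0.00013). Mlxipl, which encodes ChREBP, fell by 0.91 (SE 0.22, edgeR adjusted p = 0.00404), a call lost with DR replicate 1 alone and with the muscle covariate. The members that were not called were Scd2 (log2 fold change 0.78), Elovl5 (-0.12), Fads2 (-0.64) and Pnpla3 (-0.46). Against AL, edgeR called 0 of the 23 members (12 at an unadjusted p under 0.05), and the median log2 fold change of DRAL against AL was 0.65. Elovl6 was at 31.4 to 85.8 CPM in AL, and its difference of 1.76 was not called (edgeR adjusted p = 0.0822).

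**Figure D3:**
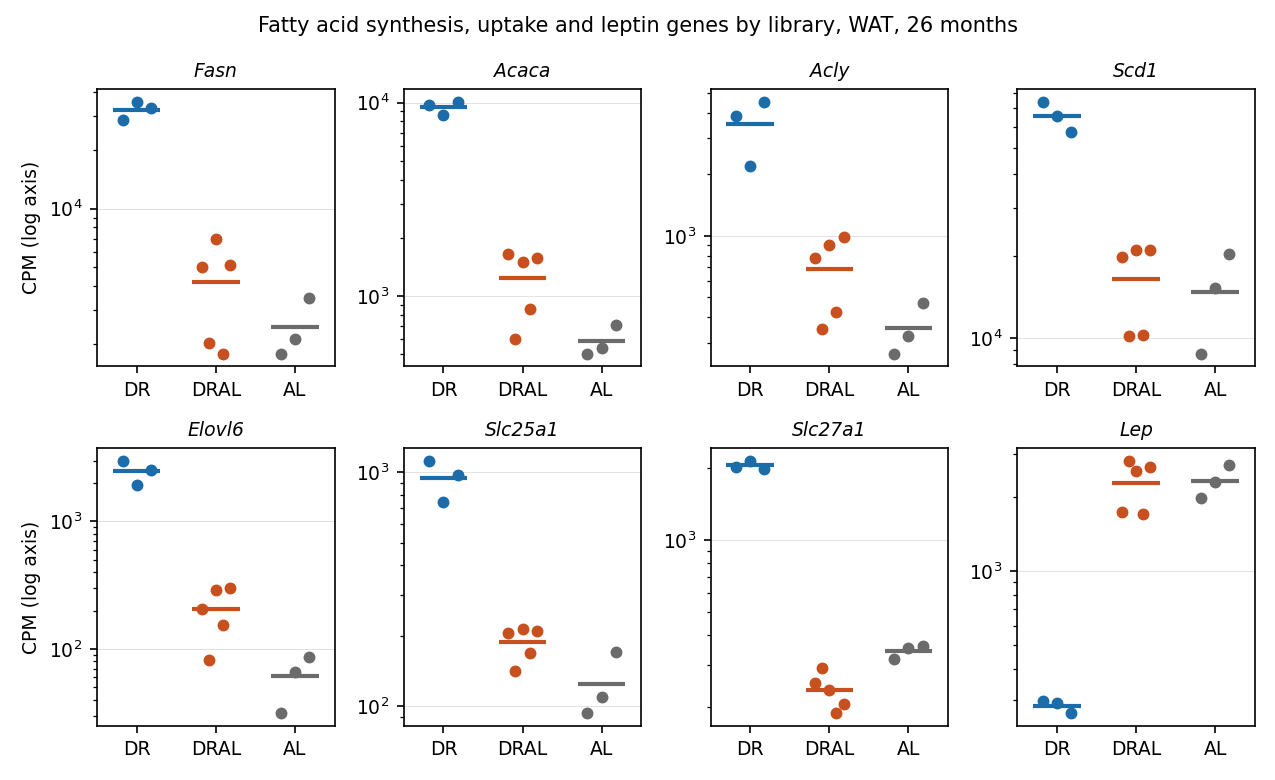
CPM (log axis) of 6 fatty acid synthesis genes, Slc27a1 and Lep; each point is 1 library and lines are group means, for 3 DR, 5 DRAL and 3 AL libraries. In each panel the DRAL libraries do not overlap the DR libraries, with Lep, at 1703 to 2802 CPM in DRAL, higher and the other genes lower.

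Triglyceride synthesis and storage genes fell in 11 of 21 members and rose in 1, with a median log2 fold change of -0.64. Dgat1, which catalyses the last step of triglyceride synthesis, had 565, 485 and 465 CPM in DR and 186, 177, 186, 153 and 183 CPM in DRAL (log2 fold change -1.51, SE 0.14, edgeR adjusted p = 1.85e-06). Acsl1, an acyl-CoA synthetase, fell by 1.71 and Lpin1, a phosphatidate phosphatase, by 1.55. Pck1, the glyceroneogenic enzyme, had 4282, 5705 and 2968 CPM in DR and 2071, 1839, 1613, 2028 and 1925 CPM in DRAL, a fall of 1.19 whose call was lost with DR replicate 1 alone and with the muscle covariate. Gk, glycerol kinase, was the member that rose, by 0.94. Compared with DR replicate 1 alone, 5 members fell and Gk was not called, and the counts were the same with the muscle covariate.

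Of 18 lipolysis genes, 7 fell and 2 rose, beside 15.9% of all genes tested that fell and 14.6% that rose. Pnpla2, adipose triglyceride lipase, had 521, 922 and 470 CPM in DR and 286, 205, 262, 178 and 251 CPM in DRAL, with a log2 fold change of -1.43 (SE 0.28, edgeR adjusted p = 0.000979). Lipe, hormone-sensitive lipase, fell by 0.83 (SE 0.14, edgeR adjusted p = 0.000258). G0s2, an inhibitor of adipose triglyceride lipase, rose from 221, 132 and 208 CPM in DR to 320, 351, 379, 349 and 412 CPM in DRAL, by 0.95 on the log2 scale. Npr3, the receptor that clears natriuretic peptides, rose by 1.50. The Pnpla2, G0s2 and Npr3 calls were lost with DR replicate 1 alone and with the muscle covariate, while Lipe kept its call in both. In those fits 4 and 1 members fell, and 0 rose by edgeR (9 and 7 members in either direction at an unadjusted p under 0.05).

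Mitochondrial and fatty acid oxidation genes fell, in the same direction as the muscle RNA. Of 30 mitochondrial respiration genes, 22 fell and 8 were not called (median -0.46), and of 22 fatty acid oxidation genes, 12 fell and 10 were not called (median -0.47). With DR replicate 1 as the one DR library, 7 and 3 fell, with medians of -0.57 and -0.52; with the muscle covariate, 3 and 1 fell. Cs, citrate synthase, had 595, 557 and 547 CPM in DR and 316, 269, 304, 248 and 320 CPM in DRAL. It fell by 0.96 (SE 0.12, edgeR adjusted p = 3.15e-05), and the groups did not overlap. Ppargc1a, a coactivator of mitochondrial genes that muscle also expresses, had 6.43, 19.4 and 15.8 CPM in DR and 2.58, 1.59, 2.44, 3.14 and 4.75 CPM in DRAL; its fall of 2.26 was not called in either of those fits. Pdk4, the kinase that restrains pyruvate oxidation in fasting, had 163, 382 and 284 CPM in DR and 49.8, 36.3, 34, 57.2 and 52 CPM in DRAL, a fall of 2.59 that was not called with the muscle covariate.

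Of 19 genes of branched-chain amino acid catabolism, 10 fell and 2 rose, with a median of -0.38. Bckdha, a subunit of the rate-limiting dehydrogenase, fell by 0.74, and Bckdk, its inhibitory kinase, by 0.69, a call lost with the muscle covariate and with DR replicate 1 alone (adjusted p up to 0.0578). Bcat1, the cytosolic transaminase, moved the other way, from 1.1, 0.763 and 0.68 CPM in DR to 2.5, 4.89, 4.06, 3.66 and 3.65 CPM in DRAL (log2 fold change 2.13, SE 0.29, edgeR adjusted p = 5.78e-05). Its level remained below AL, where it was 6.7 to 14.3 CPM (log2 fold change of DRAL against AL -1.43, edgeR adjusted p = 0.0088). The fit with DR replicate 1 alone called 2 members lower and 1 higher, and the muscle covariate left 1 of each. Likewise, 1 rose when any 1 of DR replicates 1 and 3 and DRAL replicates 3 and 5 was left out.

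Insulin and IGF signalling genes fell in 9 of 24 members and rose in 2. Slc2a4, the insulin-responsive glucose transporter GLUT4, had 310, 280 and 339 CPM in DR and 153, 144, 154, 119 and 194 CPM in DRAL (log2 fold change -1.02, SE 0.16, edgeR adjusted p = 0.00016), with no overlap and with a call in both fits that address muscle RNA. The receptor gene Insr fell by 0.94, and its substrates Irs1 and Irs2 by 0.77 and 0.95. None of these was called in those 2 fits, and Irs2 also lost its call without DR replicate 2. Igf1, the growth factor, rose from 159, 152 and 186 CPM in DR to 345, 315, 327, 338 and 269 CPM in DRAL, and its binding protein gene Igfbp4 rose by 0.62; Igf1 lost its call with the muscle covariate (adjusted p up to 0.0806). Against DR replicate 1 alone 1 member of the list fell and 2 rose, with the muscle covariate 1 fell and 1 rose, and without DR replicate 2 the number that fell was 3.

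Secreted factors split by gene, with 7 of 20 higher and 6 lower; against DR replicate 1 alone 2 rose and 2 fell, and with the muscle covariate 1 rose and 2 fell. Lep, leptin, had 297, 291 and 265 CPM in DR and 1729, 2802, 2559, 1703 and 2637 CPM in DRAL, all 5 far above DR. Its log2 fold change was 3.01 (SE 0.48, edgeR adjusted p = 0.000215), and the call was lost against DR replicate 1 alone and with the muscle covariate (highest adjusted p over the alternatives 0.0543). Against AL, at 1978 to 2700 CPM, the Lep difference was -0.02 (edgeR adjusted p = 0.986). Adipoq, adiponectin, had 3141, 2838 and 2667 CPM in DR and 3433, 3559, 3315, 3596 and 3320 CPM in DRAL; its groups did not overlap, yet the difference of 0.26 was not called (edgeR adjusted p = 0.109). Nrg4, a growth factor released mainly by fat, fell by 1.87, and Nampt, an enzyme of NAD synthesis that is also secreted, fell by 0.93.

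Genes that mark expanding fat depots rose in 6 of 12 members, with the other 6 not called and a median of 0.89. Mest, an imprinted gene tied to fat cell enlargement, had 80.3, 103 and 45.7 CPM in DR and 419, 503, 307, 308 and 257 CPM in DRAL (log2 fold change 2.23, SE 0.54, edgeR adjusted p = 0.00465). Sfrp5, a Wnt inhibitor, had 5.45, 11.2 and 2.1 CPM in DR and 37.4, 70.1, 20, 19.3 and 35.7 CPM in DRAL. Sncg, gamma-synuclein, rose by 1.52. None of these overlapped between the groups, and 1 of the 12 was called against DR replicate 1 alone, as with the muscle covariate. Mest lost its call in both (adjusted p up to 0.172).

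Cholesterol synthesis genes did not move as 1 group: 5 of 24 rose and 4 fell, beside 14.6% and 15.9% among all genes. Hmgcs1, at the start of the pathway, rose by 0.76, whereas Fdft1, squalene synthase, fell from 136, 131 and 128 CPM in DR to 41.2, 45.6, 52.3, 46.9 and 60.9 CPM in DRAL (log2 fold change -1.42, edgeR adjusted p = 1.14e-06). Lss, lanosterol synthase, fell by 0.88. Fdft1 kept its call in every alternative run, whereas Hmgcs1 lost it with the muscle covariate and with DR replicate 1 alone (adjusted p up to 0.145) and Lss with DR replicate 1 alone (0.0547). In both of those fits, edgeR called 0 members higher and 2 lower (6 members in either direction at an unadjusted p under 0.05 with DR replicate 1 alone and 9 with the covariate). The number that rose was 2 without DR replicate 3, and 3 without DR replicate 2, DRAL replicate 3 or DRAL replicate 5. Of 13 thermogenic genes, 3 fell and 10 were not called; 1 fell in each of the 2 fits that address muscle RNA. Ucp1, the brown fat uncoupling protein, had 2.2, 0.713 and 0 CPM in DR and 0.166, 0, 0.987, 51.1 and 3.13 CPM in DRAL; the groups overlapped and 1 DRAL library held the high value, and the difference was not called (edgeR adjusted p = 0.226).

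Clock genes differed in 15 of 19 members, 11 lower and 4 higher. Arntl, Clock and Npas2, whose products activate the clock through E-boxes, rose, and the PER and CRY genes fell. Arntl, which encodes BMAL1, had 9.91, 9.01 and 8.71 CPM in DR and 27.5, 20.9, 25.6, 28.1 and 26.4 CPM in DRAL, with a log2 fold change of 1.48 (SE 0.17, edgeR adjusted p = 1.50e-05). Clock and Npas2, its partners, rose by 0.66 and 1.31. None of the 3 overlapped between the groups. For Arntl the DRAL libraries lay beside AL, at 27.7 to 33.6 CPM.

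The PER and CRY repressors fell. Per3 had 89.6, 134 and 159 CPM in DR and 31.1, 43, 33.2, 23.5 and 34.3 CPM in DRAL (log2 fold change -1.95, SE 0.18, edgeR adjusted p = 1.44e-06). Per2 had 51.8, 84.3 and 78.7 CPM in DR and 18.8, 21.6, 10.8, 6.1 and 18 CPM in DRAL, and Per1 fell by 1.92 and Cry1 by 0.86. The D-box activators Dbp, Tef and Hlf fell by 1.31, 1.28 and 1.51. Rora, a nuclear receptor that activates Arntl, fell by 1.26. Nr1d1, the repressor REV-ERB alpha, rose from 7.71, 15.5 and 18.6 CPM to 43.5, 37.9, 21.3, 25.8 and 30.3 CPM, by 1.19 (edgeR adjusted p = 0.0141). Nr1d1 lost its call without DR replicate 1, without both DR replicate 1 and DRAL replicate 4, and with the muscle covariate (highest adjusted p over the alternatives 0.292). Its paralog Nr1d2 fell by 0.66. The fit with DR replicate 1 alone called 5 clock genes lower and 3 higher, and with the muscle covariate 4 fell and 3 rose. In DRAL against AL, edgeR called 0 of 19 (2 at an unadjusted p under 0.05), with a median of 0.06.

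Promoter windows of clock genes are shown because the E-box CACGTG is the site of BMAL1 and CLOCK, and the D-box TTATGTAA that of DBP, TEF and HLF. Capitals mark the motif in each window (RefSeq, GRCm38.p6). They are Per1 at chr11:69098768-69098803 on the plus strand, Cry1 at chr10:85185094-85185129 on the minus strand, Tef at chr15:81802531-81802566 on the plus strand, Ciart at chr3:95882252-95882359 on the minus strand and Per3 at chr4:151044801-151044885 on the minus strand.
Per1: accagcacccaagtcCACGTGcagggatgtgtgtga
Cry1: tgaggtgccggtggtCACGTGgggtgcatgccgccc
Tef: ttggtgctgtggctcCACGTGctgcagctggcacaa
Ciart: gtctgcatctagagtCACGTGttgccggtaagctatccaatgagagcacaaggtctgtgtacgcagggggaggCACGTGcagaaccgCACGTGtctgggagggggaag
Per3: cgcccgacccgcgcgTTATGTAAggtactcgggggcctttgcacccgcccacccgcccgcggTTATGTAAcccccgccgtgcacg
The E-box was found in 5 of the 16 clock genes with a promoter in the table, in 6 of 21 promoters (28.6%), against 6.02% of all promoters. Of these 5, Per1, Cry1 and Tef fell, while Ciart (log2 fold change -0.98, edgeR adjusted p = 0.137) and Bhlhe41 (-0.14, 0.647) were not called. The D-box was found in 1 of the 16 genes, Per3, with 2 matches, and in 0.819% of all promoters.

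**Figure D4:**
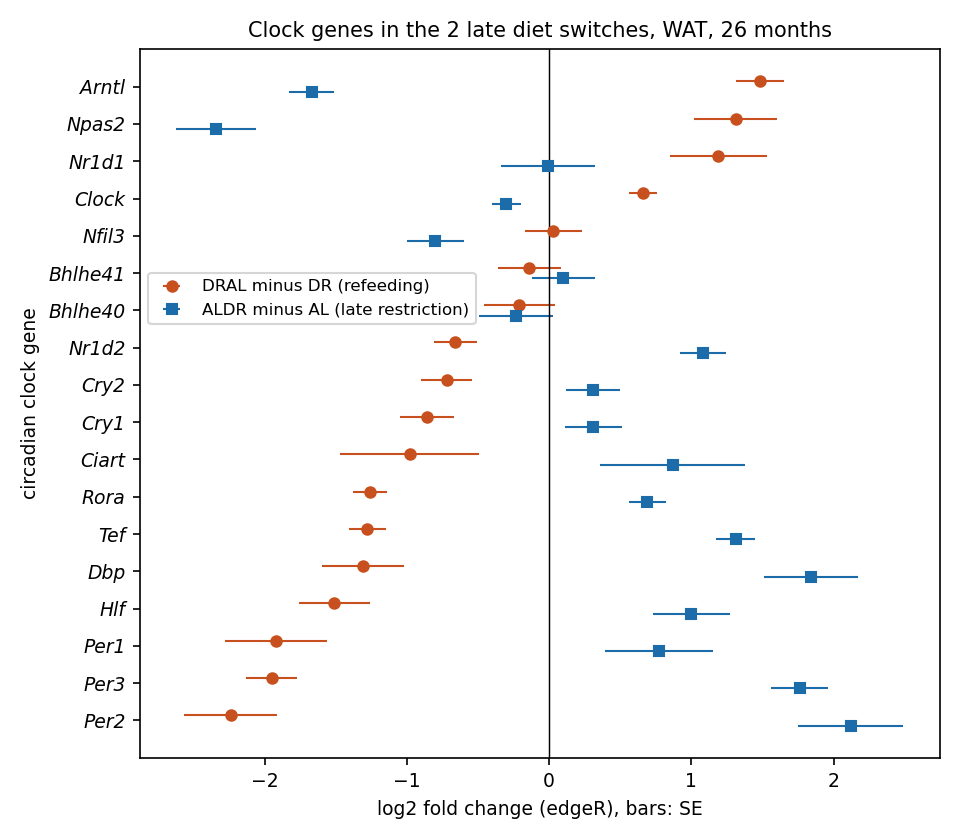
Log2 fold change of 18 clock genes, with SE bars, for DRAL minus DR (circles) and for ALDR minus AL (squares) at 26 months. Arntl was at 1.48 and -1.67, and Per3 at -1.95 and 1.76, in the 2 switches, which share no library.

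Extracellular matrix genes rose in 18 of 37 members, with 19 not called and a median of 0.68. Col3a1, a fibrillar collagen chain, had 1150, 1384 and 1286 CPM in DR and 2923, 4048, 3872, 3726 and 3109 CPM in DRAL (log2 fold change 1.47, SE 0.23, edgeR adjusted p = 0.00022). Col6a1, of the collagen VI that surrounds adipocytes, rose by 1.54, Col5a2 by 1.61 and Sparc, a collagen-binding protein, by 1.71. Col1a1 had 152, 241 and 262 CPM in DR and 269, 461, 547, 254 and 487 CPM in DRAL; its groups overlapped and it was not called (0.89, edgeR adjusted p = 0.0848). Timp1, an inhibitor of matrix metalloproteinases, rose by 2.26. Without DR replicate 3, 11 of the 37 rose, and compared with DR replicate 1 alone 4 rose and the median was 0.85. The muscle covariate left 0 called by edgeR (12 at an unadjusted p under 0.05), with a median of 0.60.

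Macrophage markers rose in 16 of 18 members and fell in 1. Adgre1, which encodes F4/80, had 69.9, 62.7 and 39.5 CPM in DR and 129, 210, 133, 296 and 112 CPM in DRAL (log2 fold change 1.62, SE 0.33, edgeR adjusted p = 0.00161). Mrc1, the mannose receptor, rose by 1.31, Lyz2, lysozyme, by 1.86, and the complement gene C1qa by 1.62. Mertk, a receptor for dying cells, fell by 0.64, and Cd163 did not pass (log2 fold change 0.00). In the fit with DR replicate 1 alone, 1 of 18 rose, with a median of 1.04 in place of 1.31, and with the muscle covariate 1 rose, with a median of 0.77. Adgre1 lost its call in both (adjusted p up to 0.226). Without DR replicate 3 the count that rose was 10, and Mertk was not called in either of those fits or without DR replicate 2.

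Chemokine and cytokine genes rose in 13 of 27 members, with 14 not called and a median of 1.20. Ccl2, the chemokine that recruits monocytes, had 1.85, 1.12 and 1.17 CPM in DR and 7.32, 14.6, 15.8, 12.8 and 14.9 CPM in DRAL, all 5 above DR. Its log2 fold change was 3.24 (SE 0.48, edgeR adjusted p = 0.00013), and the related chemokine gene Ccl7 rose by 3.58. Il1rn, the antagonist of the interleukin 1 receptor, rose by 2.77 and Tnf by 1.26. Against DR replicate 1 alone edgeR called 0 of them (9 at an unadjusted p under 0.05), and with the muscle covariate 0 (8 at an unadjusted p under 0.05), with medians of 0.66 and 0.45. The number that rose was 8 without DR replicate 2 or DR replicate 3, and 7 of 14 members tested with at least 10 counts in every library. The log2 fold change of Ccl2 over all alternatives was 2.17 to 3.51, with adjusted p up to 0.0527.

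Genes of lipid-associated macrophages, which cluster around dying fat cells in obesity, rose in 8 of 20 members and fell in 2. The 2 that fell were Lpl (log2 fold change -0.65) and Fabp5 (-0.77). Trem2, the lipid receptor of these cells, had 4.06, 5.8 and 6.12 CPM in DR and 16.7, 36.9, 19.8, 24.7 and 10.4 CPM in DRAL (log2 fold change 2.03, SE 0.44, edgeR adjusted p = 0.00215). Mmp12, macrophage elastase, had 1.39, 1.93 and 1.67 CPM in DR and 22.4, 110, 28.1, 5.93 and 25.6 CPM in DRAL, a rise of 4.52 with 1 high library among the refed. Itgax, CD11c, had 11.6, 3.1 and 3.77 CPM in DR and 15.2, 53.1, 21.5, 17 and 18.5 CPM in DRAL, with a log2 fold change of 2.03 (edgeR adjusted p = 0.0166); its call was lost without DR replicate 2, without DR replicate 3, with the muscle covariate and with DR replicate 1 alone (adjusted p up to 0.54 over the alternatives). Cd68, 1 of the macrophage markers above, overlapped between the groups (log2 fold change 1.07, edgeR adjusted p = 0.0255) and lost its call in 8 of 17 alternatives. Trem2 (adjusted p up to 0.117) and Mmp12 (up to 0.0762) also lost theirs with the muscle covariate and with DR replicate 1 alone. Against DR replicate 1 alone, 1 member of the list rose and 1 fell, and the median was 0.60 in place of 0.54; with the muscle covariate 1 rose, none fell and the median was 0.31. The number that rose was 5 without DR replicate 2 or DR replicate 3, and the number that fell was 1 with any 1 of DR replicates 1, 2 and 3 and DRAL replicates 1, 2 and 5 left out.

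Trem2, Itgax, Mmp12 and Cd68 were lower in DRAL than in AL. Trem2 was at 61.4 to 148 CPM in AL, above all 5 DRAL libraries, and the log2 fold change of DRAL against AL was -2.09 (edgeR adjusted p = 0.0107). For Itgax it was -2.26 (edgeR adjusted p = 0.0288), for Mmp12 -2.79 (0.0204) and for Cd68 -1.27 (0.046). In the list of lipid-associated macrophage genes, 8 of 20 members were lower in DRAL than in AL, against 1.28% lower among all genes tested, and the list's median was -0.91. Among the 18 macrophage markers 1 was lower and 1 higher, with a median of -0.44. These differences from AL and those from DR share the DRAL libraries.

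**Figure D5:**
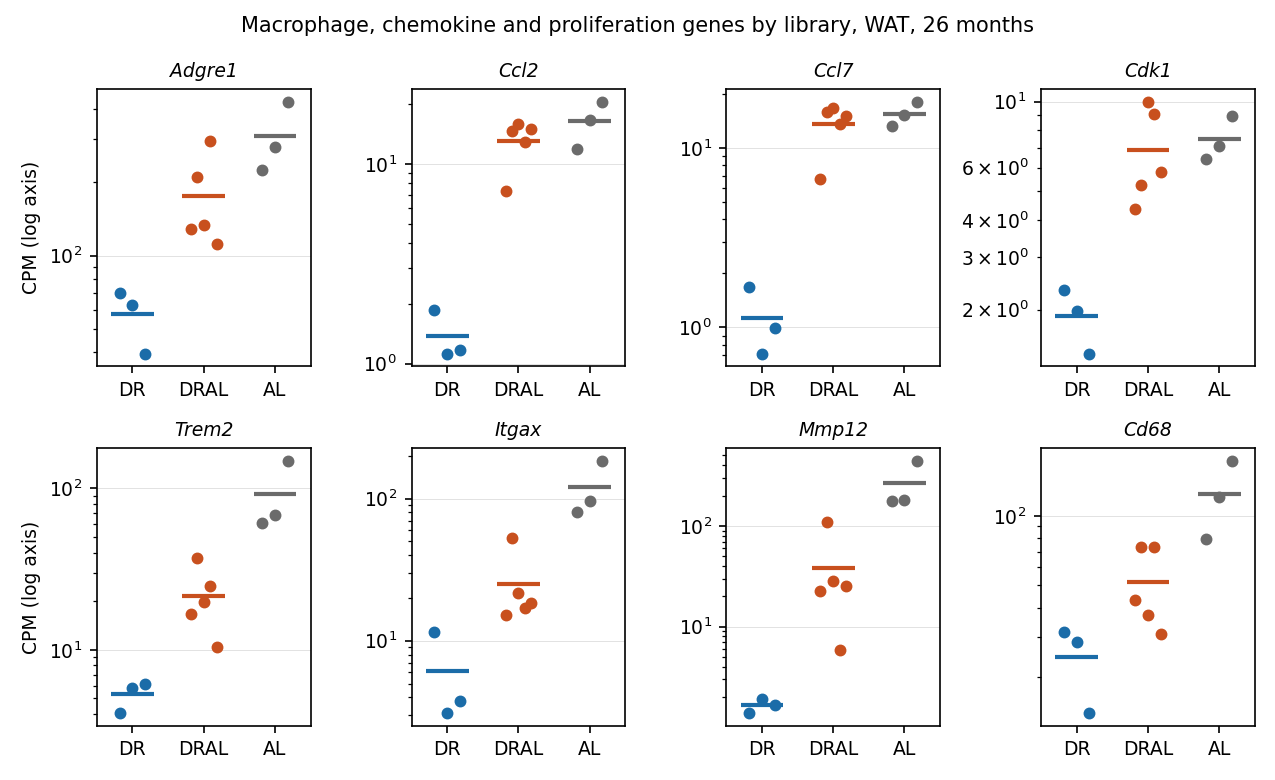
CPM (log axis) of macrophage genes (Adgre1, Trem2, Itgax, Mmp12, Cd68), chemokine genes (Ccl2, Ccl7) and Cdk1; each point is 1 library and lines are group means, for 3 DR, 5 DRAL and 3 AL libraries. Trem2, Itgax and Mmp12 in DRAL lie above DR and below AL, while Ccl2 and Ccl7 overlap with AL.

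Proliferation genes rose in 19 of 25 members, with 6 not called and a median of 1.33. Cdk1, the mitotic kinase, had 2.32, 1.98 and 1.42 CPM in DR and 4.37, 5.26, 10, 9.07 and 5.8 CPM in DRAL (log2 fold change 1.85, SE 0.27, edgeR adjusted p = 0.000115), with no overlap. Aurkb and Ccna2, a mitotic kinase and a cyclin, rose by 1.91 and 1.77. Against DR replicate 1 alone, 1 of the 25 rose and the median was 0.69, and with the muscle covariate 1 rose and the median was 0.55. The list had 10 rising members without DR replicate 2, 9 without DR replicate 3 and 12 with only the groups compared. Genes of antigen presentation by MHC class II rose in 5 of 10 members, with Ctss, the cathepsin of this pathway, from 93.4, 42.3 and 30.9 CPM to 116, 222, 128, 228 and 126 CPM. In the fit with DR replicate 1 alone, edgeR called 0 of these (0 also at an unadjusted p under 0.05) and the median was 0.02, against 0.69 with all DR libraries; with the muscle covariate it called 0 (1 at an unadjusted p under 0.05). That library had 517 CPM of B and plasma cell markers, against 137 and 134 CPM in the other DR libraries, and 185 CPM of T and NK cell markers, against 36.4 and 21.1 CPM there and 39.7 to 113 CPM in DRAL; the part of these cells in the result was not tested. Without that library, 8 of 10 rose and the median was 1.29. In contrast, 2 rose without DR replicate 3, and 3 without DR replicate 2, without DRAL replicate 2 or with only the groups compared.

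Late refeeding was then set against restriction started at the same age, to ask whether the 2 diet switches mirror each other. ALDR differed from AL in 690 genes (4.36%), 421 of them higher (2.66%) and 269 lower (1.70%). Of the 4825 genes called in DRAL against DR, 3948 (81.8%) had the opposite sign in ALDR against AL, and 457 were called in the opposite and 22 in the same direction. Their median log2 fold change in the opposite direction was 0.23 there, against a median absolute change of 0.65 on refeeding. In mice restricted for 2 months and studied at 5 months of age, 4619 genes were called (29.2%); 4280 of the 4825 (88.7%) had the opposite sign, and 2463 were called in the opposite direction. These pairs of comparisons share no library. The share of opposite signs among all genes tested was not computed, so these shares have no baseline here. Arntl, for example, was at 1.48 on refeeding, -1.67 on late and -2.03 on early restriction.

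Whether the changes of both late switches cancel was tested as their sum in the same fit. The sum differed from 0 in 340 genes (2.15%), 152 positive and 188 negative. Among them, 98 moved in opposite directions with the larger change on refeeding, 2 with the larger change on late restriction, and 240 had the same sign in both. C2cd2l was of the first kind, with -1.90 on refeeding and 0.25 on late restriction. It was at 17.8 to 27.2 CPM in DRAL, 23.9 to 28.3 CPM in AL and 28.1 to 32 CPM in ALDR, far below the 76.1 to 87.7 CPM of DR. Its sum was -1.65 (SE 0.16, edgeR adjusted p = 2.01e-05). Rarres2 was of the same kind, with 1.86 and -0.43 and a sum of 1.43 (SE 0.21, edgeR adjusted p = 0.00173). Timp4 and Fbxo22 had sums of 1.72 and 1.24, of which late restriction gave 0.08 and 0.05, neither called. The count of 340 fell to 73 without DR replicate 2 and to 22 with the muscle covariate.

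A small number of genes differed between switched and unswitched mice in the same direction. In both late switches, 8 genes rose and 14 fell at an edgeR adjusted p under 0.05. Arsb, the lysosomal enzyme arylsulfatase B, had 135, 109 and 92.1 CPM in DR and 32.7, 32.2, 32.3, 30.3 and 27 CPM in DRAL, and likewise 76.4 to 130 CPM in AL and 23.6 to 28.9 CPM in ALDR. Its sum was -3.83 (SE 0.28, edgeR adjusted p = 3.34e-07). Xkrx, a gene of the XK family of membrane proteins, had 66, 45 and 39.4 CPM in DR and 0.582, 0.266, 0.348, 0.698 and 0.986 CPM in DRAL, with 26.1 to 46.3 CPM in AL and 0.152 to 0.908 CPM in ALDR. In the young mice it ranged from 0.846 to 21.9 CPM in AL and from 7.55 to 34.6 CPM in ALDR. The Xkrx sum was -12.82 (SE 1.04, edgeR adjusted p = 1.40e-06). Groups of 5 libraries were the switched ones and groups of 3 the unswitched ones at this age, and a diet switch cannot be told apart from any other difference shared by those groups.

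The same diet contrast in brown adipose tissue (BAT), 3 DRAL against 3 DR libraries, gave 1163 called genes of 13845 (8.40%), of which 480 rose (3.47%) and 683 fell (4.93%). The number called was 425 to 720 when any 1 of these libraries was left out, and 358 with the muscle covariate. Of genes tested in both depots, 542 were called in both, which is 12.1% of the WAT list and 47.4% of the BAT list. Among all genes tested in both, 8.39% were called in BAT and 32.9% in WAT. Of the 542, 483 had the same direction and 59 the opposite one. In BAT the 14 skeletal muscle markers had a median log2 fold change of -2.64, with none called by edgeR. Their part in the shared direction was not tested. DR replicate 2 in BAT had 6075585 total counts, the fewest of the BAT libraries. The BAT libraries were made from polyadenylated RNA and the WAT libraries from RNA depleted of ribosomal RNA, so levels were not compared. Fatty acid synthesis genes, with 19 of 23 lower in WAT, were called in 1 of 23 in BAT, where that 1 rose and the median log2 fold change was 0.34. Fasn was at 0.07 (edgeR adjusted p = 0.929) and Acaca at 0.26 (edgeR adjusted p = 0.664) in BAT; the difference between depots was not tested. Slc27a1 fell in both depots, by 1.36 in BAT, and Lep rose in both, by 2.51 in BAT (edgeR adjusted p = 0.0155). Timp4, which rose in WAT, fell in BAT by 1.17 (edgeR adjusted p = 0.019), and Rarres2 was at -0.06 there (edgeR adjusted p = 0.872). Of the 19 clock genes, 4 fell and 2 rose in BAT, with a median of -0.12. Per2 and Cry1 were among those that fell, by 2.01 and 1.17, and Nr1d1 rose by 1.74. Arntl (0.82, edgeR adjusted p = 0.211) and Per3 (-0.70, edgeR adjusted p = 0.188) were not called in BAT.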

How the data were processed

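The authors deposited a table of read counts per gene for each tissue; the deposited values are whole numbers that were not normalized, with 25913 Ensembl genes and 1 column per library. WAT libraries were paired-end with 100 bp reads, per the labels. The submitters' processing notes name Trim Galore 0.3.7, TopHat2 2.0.14, DESeq2 and GRCm38. The counting program, its annotation and its strand setting are not given in the sources used here, so how reads of overlapping or duplicated genes were split is unknown. Symbols came from GENCODE M21 (25012 genes matched).

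Counts were tested with edgeR 4.0.16 (R 4.3.3): filterByExpr, TMM factors, a quasi-likelihood fit over all 22 WAT libraries, and Benjamini-Hochberg adjustment over all genes tested, with a threshold of 0.05. TMM factors were 0.883 to 0.9251 in DR and 1.035 to 1.079 in DRAL. No library was a copy of another (chi-square per degree of freedom 10.4 to 82.3 within groups). The fit was tested on simulated data. The members and gene lists were chosen with earlier results of these data known. Lists held 582 entries, of which 578 matched. Genes named were the 6 rising and 6 falling genes with the smallest adjusted p (absolute log2 fold change 1 or more), no overlap and a mean of at least 1 CPM; a fixed list; up to 2 genes per list and direction; and 3 per sign of the sum of both switches. Other genes were named after their values were seen. Some genes of the lists are counted but not reported by name here.

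Alternatives were DESeq2 1.42.0, RLE factors, no filter, at least 10 counts in every library, only the groups compared, a replicate block, a muscle score covariate and leaving out each library; after seeing the data, DR replicate 1 as the one DR library, and leaving out DR replicate 1 with DRAL replicate 4, were added.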

Additional observations from a re-analysis of the deposited data

Results flagged for a closer look

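In 10 of 98 groups of 5 DRAL values examined (named genes and marker sums), 1 library lay far from the other 4, where chance flags about 1 in 20. DRAL replicate 2 was low for Oscp1 (12.3 CPM) and high for Mmp12 (110 CPM) and Itgax (53.1 CPM). DRAL replicate 4 was low for Dgat1 (153 CPM) and for the endothelial markers (999 CPM summed), and high for Ucp1 (51.1 CPM), the brown adipocyte markers (76.3 CPM summed) and the smooth muscle markers (1766 CPM summed). DRAL replicate 1 was low for Tpm4 (402 CPM), and DRAL replicate 3 was high for Fabp5 (327 CPM).

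The refeeding change and the late restriction change did not cancel in 20 of the 81 named genes. This rests on the sum of both log2 fold changes in edgeR (adjusted p under 0.05), which was called in 2.15% of all genes tested. C2cd2l, Arsb, Xkrx, Rarres2, Fbxo22 and Timp4, 6 of the 20, were chosen for their sum. Of the 81, 78 were called in DRAL against DR, which is part of the sum. So were 308 of the 340 genes called for the sum. The 2.15% is therefore no baseline for the named genes, and the count only describes them. Those with a negative sum included C2cd2l (-1.65), Slc5a6 (-1.12), Gpi1 (-1.06), Slc27a1 (-2.10), Sh2b2 (-1.03), Fdft1 (-0.73), Slc25a1 (-1.63), Arsb (-3.83), Xkrx (-12.82), Cs (-0.71) and Srebf1 (-1.33). The sum was positive for Rarres2 (1.43), Fbxo22 (1.24), Timp4 (1.72), Tpm4 (1.06), Apoe (1.23), Bcat1 (1.96), Cdk1 (1.59) and Sncg (1.26). With the muscle covariate 7 of these 20 remained called, and with the replicate block 9.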

How the results depend on the processing

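The count of genes called in DRAL against DR in WAT was 4825, and 3025 to 4807 when 1 library was left out, lowest without DR replicate 2. It was 428 with the muscle covariate and 718 with DR replicate 1 as the one DR library; the muscle score separates the groups, so the covariate also takes up part of the group difference. For the sum of both switches (340), DESeq2 called 905, no filter 200, the replicate block 41 and the muscle covariate 22, and leaving out 1 library gave 73 to 561. In BAT (1163), the muscle covariate left 358, and leaving out 1 library gave 425 to 720. With only the groups compared, 52.9% of the 1251 BAT calls rose, against 41.3%. Replicate numbers are shared by the groups, but same-numbered libraries did not deviate together (correlations -0.29, 0.33 and -0.11 in WAT), and a fit with the number as a block called 3886 genes in WAT. No named gene changed direction under any alternative run. Of 81 named genes, 34 lost their call with the muscle covariate, 29 with DR replicate 1 alone and 3 with the block. Fabp5 lost it in 10 of 17 alternatives, and Cd68 and Mccc2 in 8 each. The number of DR libraries, 3, limits every comparison with DR, and the cause of these shifts was not tested.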

Other observations

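Lysosomal enzyme genes, which break down material taken up by cells, rose in 10 of 31 members and fell in 3, with a median log2 fold change of 0.16 in DRAL against DR, beside 14.6% and 15.9% of all genes tested. The number that rose was 0 with DR replicate 1 alone (7 members in either direction at an unadjusted p under 0.05) and 0 with the muscle covariate (5 in either direction), by edgeR. It was 3 without DR replicate 3, 5 without DR replicate 2 or DRAL replicate 2, 6 without DRAL replicate 3, and 2 without both DR replicate 1 and DRAL replicate 4. Ctsz, a cathepsin, had 208, 188 and 170 CPM in DR and 240, 299, 296, 304 and 267 CPM in DRAL, and rose by 0.58 (edgeR adjusted p = 0.00428), a call lost against DR replicate 1 alone and with the muscle covariate (adjusted p up to 0.272). Arsb, of glycosaminoglycan breakdown, fell by 1.86, and the cholesterol exporter of lysosomes Npc1 by 0.68. The macrophage marker sums given above moved with this group, and their part in it was not tested.

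Among the liver markers, Cyp2e1, a cytochrome P450 that adipocytes also express, had 1952, 2808 and 2303 CPM in DR and 534, 385, 424, 763 and 389 CPM in DRAL. It fell by 2.24 (edgeR adjusted p = 0.000135), while Alb, albumin, was at 39.8 to 113 CPM in DR and 32.5 to 45.6 CPM in DRAL and was not called (edgeR adjusted p = 0.689). Of 17 T and NK cell markers 1 rose. Of 6 smooth muscle markers 1 rose, 1 fell and 4 were not called. Acta2, smooth muscle actin, had 88.6, 78.5 and 75 CPM in DR and 252, 211, 244, 388 and 273 CPM in DRAL, with a rise of 1.76 (edgeR adjusted p = 0.00173), while Des, desmin, which skeletal muscle also expresses, fell by 1.90 (edgeR adjusted p = 0.026). Of 7 neutrophil and mast cell markers tested, 1 rose, S100a8, a neutrophil gene, by 2.13, and 1 fell, the mast cell receptor gene Kit, by 0.89. These marker counts stand beside 14.6% of all genes tested that rose and 15.9% that fell. The genes named in this paragraph were not followed through the alternative fits.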
